A study of Mus musculus with 2 samples.

Results

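Expression of 36 early lymphoid and B cell genes was compared between WT and ESAM-null FL HSCs. The genes were taken by symbol from a list of receptors, recombination genes, pre-B cell receptor components and transcription factors of the early lymphoid, B and T lineages, and all 36 were found among the 23284 gene symbols measured. ESAM is an adhesion molecule of endothelial cells and HSCs. Both groups were mouse FL cells of embryonic day E14.5 sorted as LSK CD48- (lineage marker-negative, Sca-1+, c-Kit+, CD48-), a gate for HSCs, and differed in Esam genotype, WT or ESAM-null. The ESAM-null fetuses lacked ESAM in the whole body, so that their endothelium and other FL cells lacked it as well as the HSCs. Each group was 1 RNA-seq library. How many fetuses and cells each library came from is not stated in the sources used here. The labels describe sorted cells that were put into methylcellulose medium and incubated, while the methods of the study describe RNA of the sorted cells, and the files do not tell these apart.

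HSCs are not committed to a lineage, but transcripts of several lineages are present at low level in the stem and progenitor pool, a state known as lineage priming. FLT3 and the IL-7 receptor carry the signals that lymphoid progenitors depend on. E proteins (products of Tcf3, Tcf4 and Tcf12) bind E-box sequences and turn on early lymphoid genes, and Id proteins block them by forming dimers that cannot bind DNA. EBF1 and PAX5 then set B cell identity, while TCF-1, GATA3 and BCL11B do so for T cells. RAG1 and RAG2 cut antigen receptor genes, and the surrogate light chain proteins VpreB1 and Igll1 with CD79A and CD79B are parts of the pre-B cell receptor.

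Levels are given as FPKM (fragments per kilobase of transcript, scaled to sequencing depth), which is per length and allows genes to be set side by side. The libraries held about 8710750 reads (WT) and 10640700 reads (ESAM-null) as summed over genes from FPKM and transcript length. Esam was 118 FPKM in WT against 12.1 FPKM in ESAM-null, in the direction of the labels. With 1 library a group no test could be made, and no difference below has a replicate check. Intervals in the text are exact 95% intervals of the ratio of ESAM-null to WT and cover counting error of approximate reads only. In bulk samples, fewer cells of a type and less RNA per cell cannot be told apart.

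In WT, 6 of the 36 genes were at 30 FPKM or more, 18 were between 1 and 30 FPKM, 8 were above 0 and under 1 FPKM, and 4 were listed at 0. In ESAM-null, the same classes held 7, 14, 4 and 11 genes. Thus the receptor chain Il2rg, the E protein gene Tcf3, Id3, Cd79b, Flt3 and Sox4 made up the upper class in WT, while Pax5, Dntt, Ikzf3 and Bcl11b were listed at 0. Of the 25 genes with at least 1 FPKM in 1 library, 5 were lower by 2-fold or more in ESAM-null (Ly6d, Cnr2, Ccr9, Bach2 and Tcf7), 1 was higher by 2-fold or more (Spib) and 19 were neither. Of all 12066 genes that passed the same filter, 12.8% were lower and 7.42% higher by this rule. The median log2 ratio of the 24 members above 0 in both libraries was -0.04, and that of all such genes was 0.01. After rescaling both libraries to a sum of 1000000, all log2 ratios shifted by -0.28, 7 members were at least 2-fold lower and 1 higher, and among all genes the shares were 19.5% and 5.47%.

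**Figure D1:**
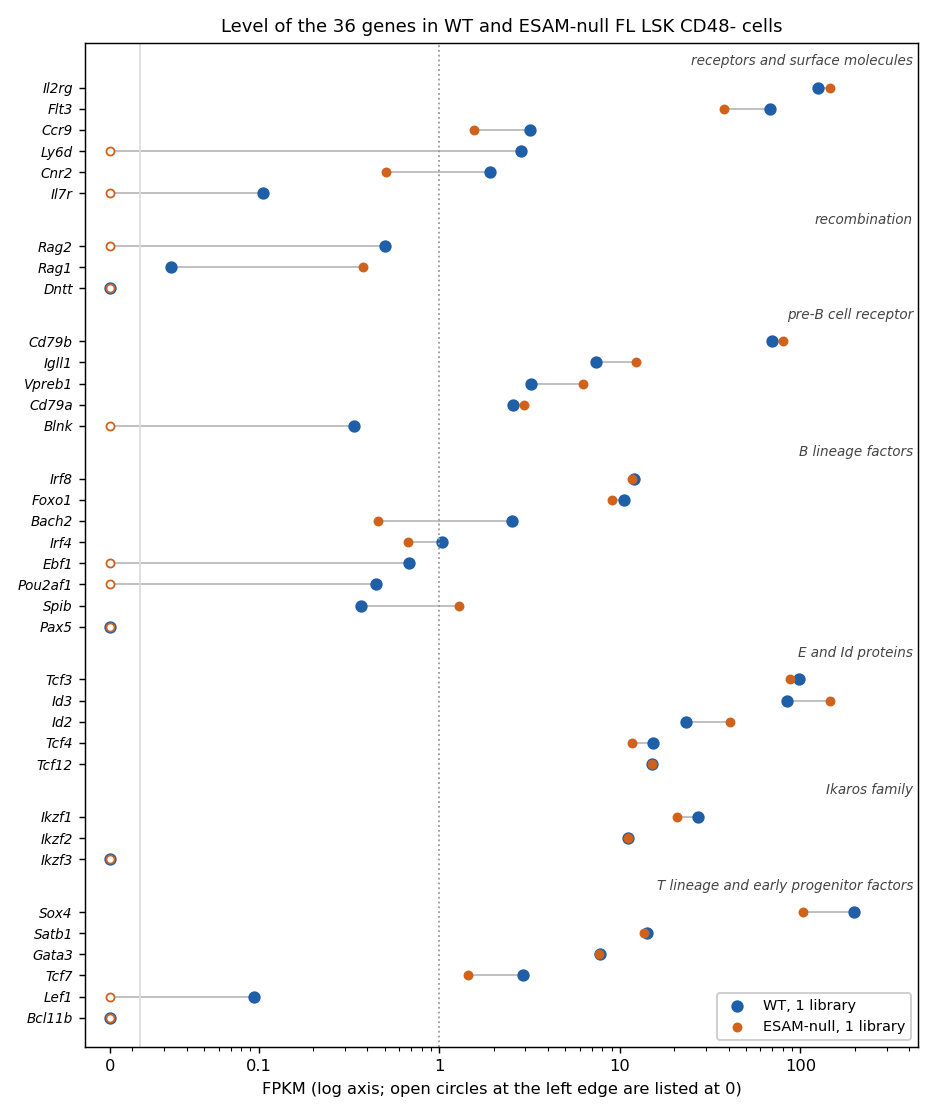
FPKM of the 36 genes in the WT and ESAM-null libraries on a log axis, grouped by role, with 1 point per library and genes listed at 0 drawn at the axis end. Sox4 (199 and 103 FPKM), Flt3 (67.6 and 37.8 FPKM), Id2 (23.2 and 40.5 FPKM) and Id3 (84.7 and 146 FPKM) show the widest gaps among the genes above 20 FPKM in either library.

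At the deposited scaling, the 2-fold differences were all at low level. After rescaling both libraries to a sum of 1000000, Sox4 (log2 ratio -1.22) and Flt3 (-1.12), both of high level, passed 2-fold as well and raised the lower count from 5 to 7. Of the 6 members with a mean of 1 to 3 FPKM, 5 were at least 2-fold lower, while 30% of all genes in that class were at least 2-fold lower and 19.7% at least 2-fold higher. Spib was in the class of mean under 1 FPKM, where 57.2% of measured genes were lower and 31.6% higher. Genes of this class passed the filter through their higher library only, which for Spib was ESAM-null. A gap between the libraries is thus built into this class, and its shares and the call of Spib carry that limit. None of the 17 members with a mean of 3 FPKM or more was past 2-fold in either direction. The shares of all genes that were lower and higher were 16.5% and 7.66% at 3 to 10 FPKM, 5.3% and 2.84% at 10 to 30 FPKM, 0.723% and 1.45% at 30 to 100 FPKM, and 1.73% and 1.58% at 100 FPKM or more, so that differences of 2-fold or more were uncommon among genes of high level. For the members of high level that stood out under 2-fold, the place in the class is given below.

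**Figure D2:**
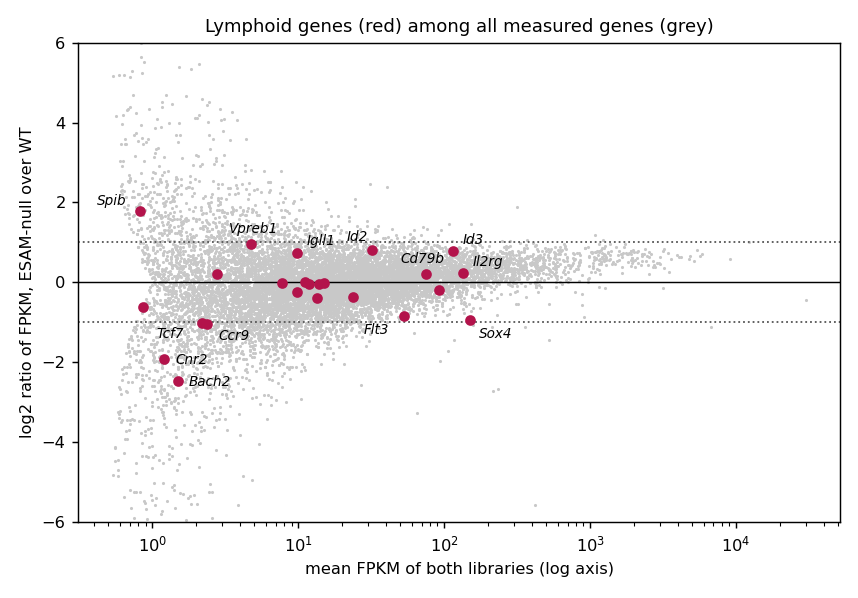
Log2 of ESAM-null FPKM over WT FPKM against mean FPKM (log axis) for all 11663 measured genes above 0 in both libraries (grey, 20 of them outside the plotted range) and the 24 members above 0 in both (colored). The cloud narrows with level, and Flt3, Sox4, Id2 and Id3 lie toward its edges while Tcf3, Il2rg and Cd79b lie inside it.

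Positions below are of whole genes on mm10 (GRCm38). Of the receptors and surface molecules, Flt3 (chromosome 5, 147330741 to 147400489, minus strand), the cytokine receptor of lymphoid-primed progenitors, was 67.6 FPKM in WT against 37.8 FPKM in ESAM-null. The ratio was 0.559 (interval 0.522 to 0.599) from about 2198 and 1338 reads. Of all measured genes of the same level class, 1.62% had a ratio as low or lower, and of the 445 genes that shared both its level class and its transcript length class, 2.25% did. Il2rg, the gamma chain that the IL-7 receptor shares with other cytokine receptors, was 125 FPKM in WT against 147 FPKM in ESAM-null. Its log2 ratio of 0.23 turned to -0.05 after rescaling both libraries to a sum of 1000000. Il7r, the chain that binds IL-7, was 0.106 FPKM in WT, about 3 reads, but listed at 0 in ESAM-null. Thus both libraries held transcripts of the shared chain at over 100 FPKM with little or no Il7r.

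Ccr9, a chemokine receptor of thymus-seeding progenitors and plasmacytoid dendritic cells, was 3.19 FPKM in WT against 1.56 FPKM in ESAM-null (ratio 0.489, interval 0.329 to 0.715). In its level class, 29.3% of genes had a ratio as low. Cnr2, the cannabinoid receptor of immune cells, was 1.92 and 0.507 FPKM (ratio 0.265, interval 0.144 to 0.442), and 16.1% of its class had a ratio as low. Ly6d, a surface protein of B cell-biased lymphoid progenitors, was 2.85 FPKM in WT, about 15 reads, but listed at 0 in ESAM-null. The 3 lower genes of this group are all low in both libraries, and Flt3 was the only lymphoid receptor in the list that had both a high level and a ratio under 0.6.

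The recombination genes were close to the limit of these libraries. Rag2 was 0.499 FPKM in WT, about 15 reads, but listed at 0 in ESAM-null. Rag1 went the other way, with 0.0328 FPKM in WT, about 2 reads, and 0.377 FPKM in ESAM-null, about 25 reads (interval of the ratio 2.87 to 100.1). Dntt, which adds untemplated nucleotides at V(D)J junctions, was listed at 0 in both. Rag1 and Rag2 are neighbors on chromosome 2 and are transcribed toward each other. The gene B230118H07Rik overlaps Rag1 on the same strand and Rag2 on the opposite strand in the annotation, and was 15.3 FPKM in WT against 20.3 FPKM in ESAM-null. The library kit does not mark strand, so reads of these overlapping genes cannot be told apart where they coincide.

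Transcripts of Igll1, Vpreb1, Cd79a and Cd79b, which encode parts of the pre-B cell receptor, were present in both libraries. The surrogate light chain genes among the members, Igll1 and Vpreb1, were higher in ESAM-null, while Vpreb2, which was not a member, was lower. Igll1 was 7.37 FPKM in WT against 12.4 FPKM in ESAM-null (ratio 1.68, interval 1.17 to 2.49, about 46 and 85 reads), and Vpreb1 was 3.22 and 6.26 FPKM (ratio 1.95, interval 1.07 to 3.70, about 17 and 36 reads). Of all genes in their level class, 12.7% had a ratio as high as that of Igll1 and 8.52% as that of Vpreb1. Among the genes that also shared their length class, the shares were 26.2% and 20.8%. Vpreb1 has a near-identical copy, Vpreb2, which was 4.32 FPKM in WT against 3.09 FPKM in ESAM-null, and reads of the pair may have been split between them. Top3b, on the opposite strand at 22.6 FPKM in WT and 23.3 in ESAM-null, overlaps the longer annotated form of Vpreb1, and reads there cannot be assigned by strand. The sum of the copies was 7.54 FPKM in WT against 9.35 FPKM in ESAM-null, a ratio of 1.24.

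The signaling chains of the receptor differed less. Cd79b was 69.6 FPKM in WT against 80.5 FPKM in ESAM-null, with a log2 ratio of 0.21 that turned to -0.07 after rescaling both libraries to a sum of 1000000. Its partner Cd79a was 2.56 and 2.96 FPKM, from about 30 and 38 reads. Cd79b was 27.2 times the level of Cd79a in both libraries, so the chains that pair in B cells were far from equal at the RNA level. Blnk, the adaptor downstream of the receptor, was 0.337 FPKM in WT, about 6 reads, but listed at 0 in ESAM-null.

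The promoters of Vpreb1, Igll1 and Cd79a are shown because E proteins are known to act on genes of this receptor. No promoter entry was found for Cd79b, and action of E proteins on these genes was not tested. Each is the 250 bases before the RefSeq start on GRCm38.p6 (the same assembly as mm10), 5′ to 3′ on the strand of the gene. Capitals mark E-box matches, CAGCTG or CAGGTG with its reverse complement CACCTG, and matches to CCCNNGGG, a sequence of the kind EBF1 binds, searched on both strands.
Vpreb1 (chr16:16869256-16869505, minus strand): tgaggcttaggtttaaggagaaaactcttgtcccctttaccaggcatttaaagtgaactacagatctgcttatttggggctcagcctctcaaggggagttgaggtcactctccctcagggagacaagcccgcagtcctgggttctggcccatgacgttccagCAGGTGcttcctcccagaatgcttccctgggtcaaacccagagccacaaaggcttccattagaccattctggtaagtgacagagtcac
Igll1 (chr16:16863986-16864235, minus strand): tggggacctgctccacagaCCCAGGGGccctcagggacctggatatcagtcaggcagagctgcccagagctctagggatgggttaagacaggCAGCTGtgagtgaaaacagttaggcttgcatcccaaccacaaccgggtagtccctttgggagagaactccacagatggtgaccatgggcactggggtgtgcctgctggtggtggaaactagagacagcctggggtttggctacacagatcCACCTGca
Cd79a (chr7:24897247-24897496, plus strand): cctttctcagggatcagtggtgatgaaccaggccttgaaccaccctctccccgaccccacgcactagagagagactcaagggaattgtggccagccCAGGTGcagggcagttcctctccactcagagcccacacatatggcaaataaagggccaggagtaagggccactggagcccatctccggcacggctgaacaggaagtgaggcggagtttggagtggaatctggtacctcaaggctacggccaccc
The Vpreb1 promoter held a CAGGTG at 88 bases before the start and the Cd79a promoter held it at 154 bases before the start. The Igll1 promoter held a CAGCTG at 158 bases, a CACCTG at 8 bases and a CCCAGGGG at 231 bases before the start. A promoter entry was found for 31 of the 36 members, and 14 of the 31 held at least 1 of the E-box sequences, while 30.6% of 27025 genes with an entry did. CCCNNGGG was found in 7 of the 31 members and in 13.4% of all genes. These matches describe the letters of the window. For Vpreb1 and Cd79a the whole annotated gene begins upstream of the RefSeq start used. The Vpreb1 window thus lies inside the gene span, and the Cd79a window overlaps it in part.

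Of the B lineage factors, the gene that starts the B cell program and the gene that fixes it were near or at 0. Ebf1 was 0.676 FPKM in WT, about 21 reads, but listed at 0 in ESAM-null. Pax5 was listed at 0 in both. Pou2af1, a coactivator of octamer-binding factors in B cells, was 0.449 FPKM in WT, about 10 reads, but listed at 0 in ESAM-null. Foxo1, which acts upstream of Il7r and the Rag genes, was 10.6 and 9.01 FPKM (ratio 0.854, interval 0.773 to 0.942). Irf8, a factor of B and dendritic cell progenitors, was 12.0 and 11.7 FPKM, and its interval of 0.808 to 1.17 held 1. Irf4, its relative in later B cell stages, was 1.04 and 0.675 FPKM (interval 0.402 to 1.05).

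Bach2 (chromosome 4, 32238804 to 32586108, plus strand), a repressor that favors lymphoid over myeloid genes, was 2.52 FPKM in WT against 0.459 FPKM in ESAM-null. From about 197 and 39 reads this is a ratio of 0.182 (interval 0.126 to 0.258), and 11.7% of its level class had a ratio as low. The study picked Bach2 from these same libraries as a lowered erythropoiesis-related gene, so its direction here is not independent evidence. An antisense transcript, Bach2os, overlaps it on the opposite strand. Spib, an ETS factor of plasmacytoid dendritic cells and B cells, was 0.370 FPKM in WT against 1.28 FPKM in ESAM-null (ratio 3.47, interval 1.63 to 8.23, about 9 and 34 reads). Spib was thus the only member past 2-fold upward at this filter, on few reads.

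Genes listed at 0 in ESAM-null need the background of such genes beside them. There were 7 members with reads in WT and a 0 in ESAM-null (Il7r, Ly6d, Rag2, Blnk, Ebf1, Pou2af1 and Lef1), and none the other way. Of the 5 members with 15 to 30 approximate reads in WT, ESAM-null had a 0 for 3 (Ly6d, Rag2 and Ebf1) and Cd79a and Vpreb1 were not. Of all 762 genes with 15 to 30 reads in WT, 28.2% had a 0 in ESAM-null, while 7.02% of genes with 15 to 30 reads in ESAM-null had a 0 in WT. At 6 to 14 reads the shares were 44.7% and 12.1%, and 2 of 3 members were at 0. At 1 to 5 reads they were 60.7% and 26.2%, with 2 of 3 members at 0. Of all genes above 0 and under 1 FPKM in WT and under 1 FPKM in ESAM-null, 58.7% were at 0 in ESAM-null. Zeros in the ESAM-null library were thus common among all genes of few reads in WT. Genes above 0 numbered 14305 in WT and 13039 in ESAM-null, although ESAM-null had the larger sum of approximate reads. The cause of this gap was not tested.

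The E protein genes and the Id genes differed in direction. Tcf3, which encodes E12 and E47, was 98.6 FPKM in WT against 87.1 FPKM in ESAM-null (ratio 0.883, interval 0.834 to 0.935). Tcf4, the E protein gene of plasmacytoid dendritic cells, was 15.3 and 11.7 FPKM (ratio 0.768, interval 0.674 to 0.877). Tcf12, which encodes HEB, was 15.1 and 15.04 FPKM. The E protein genes were thus level or lower in ESAM-null, and 24.1% and 27.2% of their level classes had ratios as low as those of Tcf3 and Tcf4. Id2 (chromosome 12, 25093799 to 25097140, minus strand), an inhibitor that favors innate lymphoid over B cell fate, was 23.2 FPKM in WT against 40.5 FPKM in ESAM-null (ratio 1.74, interval 1.48 to 2.05, about 234 and 443 reads). Id3 (chromosome 4, 136143497 to 136145755, plus strand), the other inhibitor in the list, was 84.7 and 146 FPKM (ratio 1.73, interval 1.59 to 1.88, about 858 and 1611 reads). Both were higher in ESAM-null by nearly the same factor, and Id3 was 3.65 times the level of Id2 in WT and 3.61 times in ESAM-null. Their log2 ratios went from 0.80 to 0.52 (Id2) and from 0.79 to 0.51 (Id3) after rescaling to a sum of 1000000.

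Of the measured genes in their level classes, 4.25% had a ratio as high as that of Id2 and 7.13% as that of Id3. Among genes that shared the length class as well, the shares were 9.04% and 10.6%. The summed FPKM of Id2 and Id3 was 0.836 of the summed FPKM of Tcf3, Tcf4 and Tcf12 in WT and 1.64 of it in ESAM-null. The quotient of these is 1.96 (approximate counting interval 1.79 to 2.14), and it does not depend on the scaling between libraries. It lay between 1.93 and 1.99 when each of the 5 genes was left out in turn. Id1, which was not in the list, was 47.3 FPKM in WT against 97.0 FPKM in ESAM-null, and with Id1 added the quotient was 2.07. When the median log2 ratio of genes of like length and level was subtracted from each gene, the quotient of Id2 and Id3 over the E protein genes was 1.49.

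**Figure D3:**
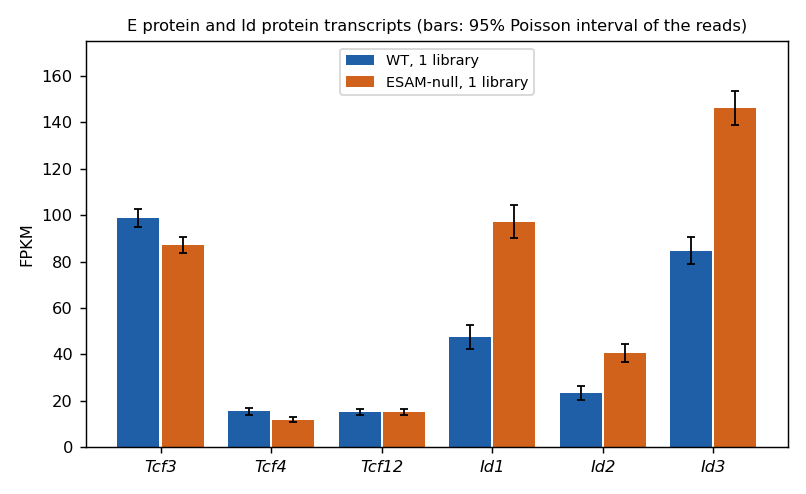
FPKM of the E protein genes, Id2, Id3 and Id1 (not in the list) in WT and ESAM-null as bars from 0, 1 library each, with 95% Poisson intervals of the approximate reads. The Id2 and Id3 bars are higher in ESAM-null (40.5 against 23.2 FPKM and 146 against 84.7 FPKM) while the Tcf3 and Tcf4 bars are lower and those of Tcf12 are level.

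The promoters of the Id genes are shown as the sequence context of a pair with like ratios, again as 250 bases before the RefSeq start on GRCm38.p6, with the same motifs in capitals.
Id2 (chr12:25096093-25096342, minus strand): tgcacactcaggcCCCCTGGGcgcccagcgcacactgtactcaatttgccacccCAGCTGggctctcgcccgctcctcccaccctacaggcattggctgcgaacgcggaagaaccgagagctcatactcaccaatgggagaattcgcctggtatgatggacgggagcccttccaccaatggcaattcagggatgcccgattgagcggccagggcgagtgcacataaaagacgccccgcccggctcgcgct
Id3 (chr4:136143572-136143821, plus strand): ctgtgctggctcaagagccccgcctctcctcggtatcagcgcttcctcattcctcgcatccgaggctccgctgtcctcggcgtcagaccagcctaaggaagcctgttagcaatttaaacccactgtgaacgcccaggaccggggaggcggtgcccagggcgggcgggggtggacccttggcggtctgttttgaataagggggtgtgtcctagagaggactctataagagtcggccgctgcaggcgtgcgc
The Id2 promoter held a CAGCTG at 196 bases and a CCCCTGGG at 237 bases before the start, and the Id3 promoter held none of these letters. Both windows lie inside the whole gene spans given above, which begin upstream of the RefSeq starts used here.

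Of the Ikaros family, Ikzf1, which encodes Ikaros and is needed for lymphoid fate, was 26.9 FPKM in WT against 20.8 FPKM in ESAM-null (ratio 0.774, interval 0.658 to 0.908), and 28.0% of its level class had a ratio as low. Ikzf2, which encodes Helios, was 11.1 FPKM in both libraries (interval of the ratio 0.914 to 1.09). Ikzf3, which encodes Aiolos of later lymphoid stages, was listed at 0 in both. The family members of early progenitors were thus present, with Ikzf1 the lower in ESAM-null.

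Of the T lineage and early progenitor factors, Sox4, an HMG box factor of early B and T progenitors, was the member of highest level in WT. It lies on chromosome 13 from 28948919 to 28953713 on the minus strand. It was 199 FPKM in WT against 103 FPKM in ESAM-null, a ratio of 0.520 (interval 0.502 to 0.538) from about 8590 and 4856 reads. In the class of 100 FPKM or more, 1.80% of genes had a ratio as low or lower, and of the 80 genes that shared both its level and its length class, 1.25% did, which is Sox4 itself. A noncoding gene, Gm26735, overlaps Sox4 on the opposite strand. Sox4 was thus the best counted difference in the list, and like Flt3 it stayed under 2-fold at the deposited scaling. It passed 2-fold after rescaling to a sum of 1000000 (log2 ratio -1.22, and -1.12 for Flt3).

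Tcf7, which encodes TCF-1 of early T cells, was 2.92 FPKM in WT against 1.44 FPKM in ESAM-null (ratio 0.493, interval 0.289 to 0.857), and 29.5% of its class had a ratio as low. Its relative Lef1 was 0.0942 FPKM in WT, about 3 reads, but listed at 0 in ESAM-null. Gata3 was 7.72 and 7.68 FPKM, and the genome organizer Satb1 was 14.1 and 13.7 FPKM. Both intervals held 1 (0.824 to 1.20 for Gata3 and 0.880 to 1.07 for Satb1). Bcl11b, which fixes T cell identity, was listed at 0 in both. Gata3, Satb1, Irf8, Ikzf2 and Tcf12 were the members above 5 FPKM whose ratios lay nearest to 1 at the deposited scaling. After rescaling both libraries to a sum of 1000000, their log2 ratios lay between -0.32 (Satb1) and -0.28 (Ikzf2). Each was then outside its counting interval.

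**Figure D4:**
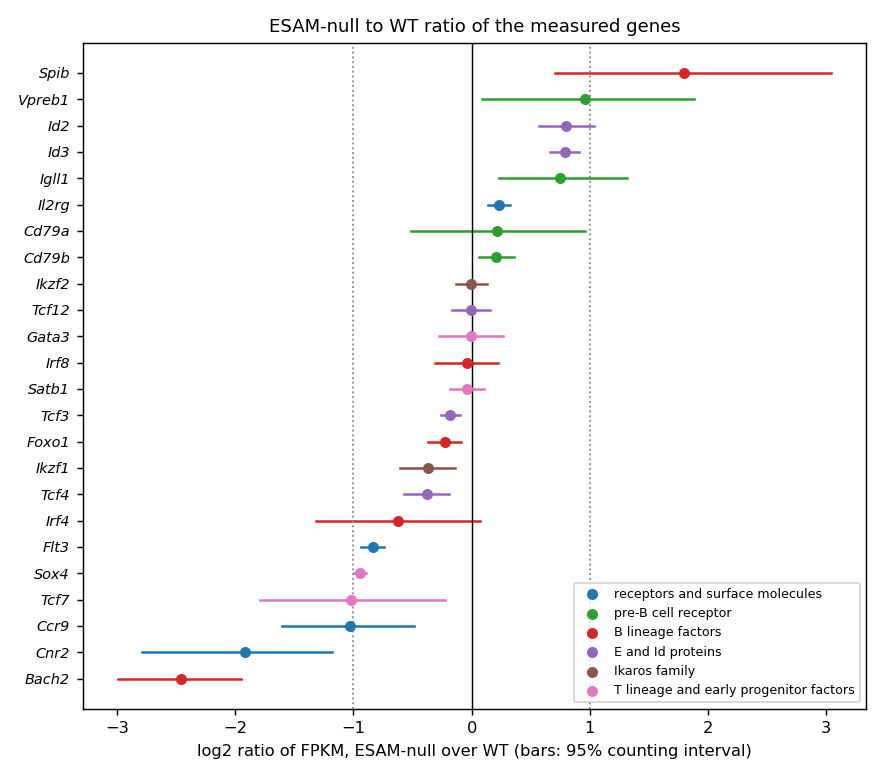
Log2 of ESAM-null FPKM over WT FPKM of the 24 members above 0 in both libraries and at least 1 FPKM in 1, with exact 95% counting intervals and vertical lines at 2-fold. Bach2, Cnr2, Ccr9 and Tcf7 lie past 2-fold downward and Spib upward while the intervals of Flt3 and Sox4 are narrow and stay short of 2-fold.

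Transcript length moved with the ratios. The median log2 ratio of all measured genes was 0.33 for transcripts under 1500 bases, 0.03 for 1500 to 3000, -0.12 for 3000 to 5000 and -0.31 for 5000 bases or more. Among the 24 members with at least 1 FPKM in 1 library and above 0 in both, the 6 under 1500 bases had a ratio above 1 (Cd79a, Cd79b, Id2, Id3, Igll1 and Vpreb1), the 11 of 3000 bases or more had a ratio below 1, and 2 of the 7 between these had a ratio above 1. Outside these 24, Ly6d, of 744 bases, went against this order with its 0 in ESAM-null, as did Rag1, of 6608 bases and under 1 FPKM in both libraries, with its ratio above 1. These classes were chosen after the values were seen, and the part of length in the differences was not tested. After subtraction of the median of genes of like length and level, the log2 ratio was -0.85 for Flt3, -1.04 for Sox4, -1.95 for Bach2, 0.55 for Id2, 0.33 for Id3, 0.89 for Vpreb1 and 0.68 for Igll1. Foxo1 turned from -0.23 to 0.14 and Cd79b from 0.21 to -0.04.

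**Figure D5:**
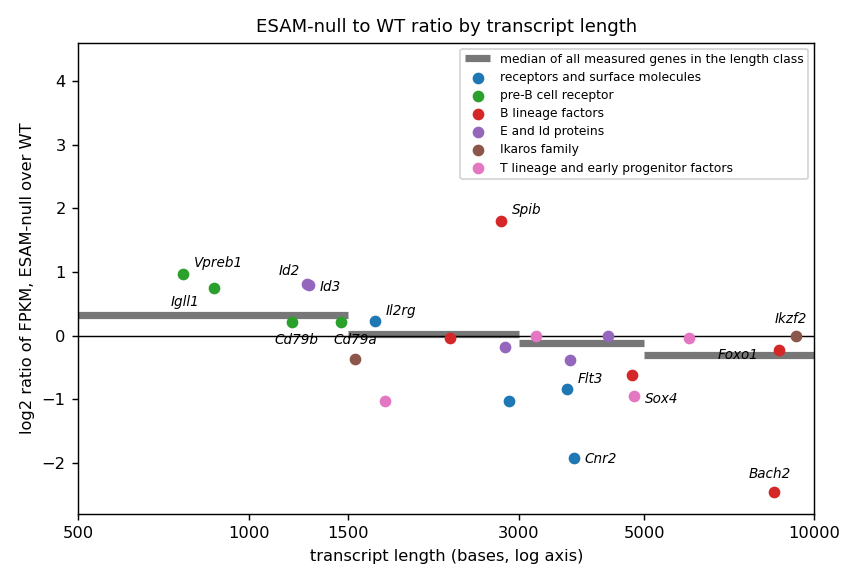
Log2 of ESAM-null FPKM over WT FPKM of the members above 0 in both libraries and at least 1 FPKM in 1, against transcript length (log axis), with grey bars at the median of all measured genes of each length class. The bars step down from 0.33 to -0.31, the 6 members under 1500 bases lie above 0, and Flt3, Cnr2, Sox4 and Bach2 lie below the bar of their class.

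The other genes of these pathways were followed as lists of genes that were not members. Of 108 listed genes found, 90 had at least 1 FPKM in 1 library, and 9 were lower by 2-fold or more and 6 higher, and those above 0 in both libraries had a median log2 ratio of -0.08. These counts are near the shares over all genes. Of 15 measured genes of IL-7 receptor and FLT3 signaling, 1 was lower, the inhibitor Socs1 (15.8 and 4.82 FPKM, interval of the ratio 0.246 to 0.372), and none higher, with a median of -0.34. Mcl1, a survival gene (122 and 102 FPKM), and Jak1, a kinase of cytokine receptors (52.9 and 49.4 FPKM), were the highest of this list. Of 12 measured genes of end joining in V(D)J recombination, 1 was lower, Prkdc, the kinase of DNA repair (5.37 and 1.41 FPKM, interval 0.220 to 0.309), and none higher, with a median of 0.22. The DNA-bending proteins Hmgb1 (707 and 933 FPKM) and Hmgb2 (417 and 546 FPKM) were the highest.

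Of 18 measured other B lineage genes, 3 were lower and none higher, with a median of -0.39. The largest differences were in Vpreb3, a chaperone of the pre-B cell receptor (3.50 and 0.495 FPKM, interval 0.0145 to 0.572, about 14 and 2 reads), and Ets1, a factor of lymphocytes (5.63 and 0.806 FPKM, interval 0.0790 to 0.254). Spi1 (listed as Sfpi1, 207 and 156 FPKM), which encodes PU.1, and Cd24a (185 and 193 FPKM) were the highest. Of 10 measured other T lineage genes, 3 were lower and 2 higher, with a median of 0.06. Cd3g, a chain of the T cell receptor complex, was 1.30 FPKM in WT and at 0 in ESAM-null, and Runx3 was 4.403 and 0.741 FPKM. Hes1, a target of Notch, was 3.07 FPKM in WT against 13.2 FPKM in ESAM-null (ratio 4.32, interval 2.98 to 6.27), and Cd4 was 1.32 and 3.41 FPKM. The adaptors Lcp2 (35.2 and 38.3 FPKM) and Lat (19.3 and 21.9 FPKM) were the highest.

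Of 9 partners and relatives of E and Id proteins, none was lower and 2 were higher, with a median of -0.04. These were Id1 (ratio 2.05, interval 1.80 to 2.34) and Id4, which was listed at 0 in WT and was 4.09 FPKM in ESAM-null, about 153 reads. Thus the members of the Id family outside the list were higher in ESAM-null as well, on 1 library each. Lmo2 (579 and 582 FPKM) and Hhex (157 and 147 FPKM), factors of stem cells, were the highest. Of 14 relatives of Ikaros, TCF and IRF factors, 1 was lower, the interferon factor Irf7 (23.1 and 6.71 FPKM, interval 0.234 to 0.358), and 1 higher, Ikzf4 (listed at 0 in WT and 1.04 FPKM in ESAM-null), with a median of -0.05. The histone deacetylases Hdac1 (169 and 187 FPKM) and Hdac2 (142 and 140 FPKM) were the highest. Of 12 surface genes of lymphoid-primed progenitors, none was lower and 1 was higher, the chemokine receptor Ccr7 (1.62 and 7.55 FPKM, interval 3.07 to 7.33), with a median of 0.14. Ltb, which encodes lymphotoxin beta (372 and 412 FPKM), and Lsp1 (354 and 386 FPKM) were the highest. Of these 12 surface genes 10 had a ratio above 1, and of all 12066 measured genes 6032 did. The median log2 ratio of all genes rose with level, from -0.20 at 3 to 10 FPKM to 0.36 at 100 FPKM or more. The part of level in the count of 10 was not tested. Rescaling to a sum of 1000000 would turn the median of the 12 genes negative. The same rescaling took the median of all measured genes from 0.01 to -0.27. The ratio of Flt3, which is not among them, was 0.559.

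Marker genes of the cells that the gate could hold were read as 8 genes per cell type. All 8 genes of the HSC list, which also holds Cd48, the gene whose protein the gate selects against, were measured and none was past 2-fold, with summed levels of 454 FPKM in WT against 445 FPKM in ESAM-null. Of the B cell markers, Ms4a1, Cd22, Pax5 and Blk were listed at 0 in both libraries, and the sums of 78.6 FPKM (WT) and 85.5 FPKM (ESAM-null) were mostly Cd79b. Of the T cell markers, Cd3e, Cd3d and Zap70 were listed at 0 in both (sums 36.6 and 35.1 FPKM), and of the innate lymphoid and NK markers, Eomes, Tbx21 and Ncr1 were (sums 2.60 and 2.198 FPKM). Several defining markers of mature B, T and NK cells were thus listed at 0 in both libraries. Of the plasmacytoid dendritic cell markers, 3 of 5 measured were lower (Ccr9, Ly6d and Pacsin1, of which the first 2 are members), Siglech was listed at 0 in WT and was 0.134 FPKM in ESAM-null, Klk1 was listed at 0 in both, and the sums of 207 and 236 FPKM were mostly Bst2 (184 and 223 FPKM), the 1 measured marker of this list with a ratio above 1.

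Of all measured genes, 12.8% were lower and 7.42% higher by 2-fold or more. Of the other marker lists, the erythroid one differed most, with 4 of 8 lower and 1 higher. Its sums of 412 and 108 FPKM were mostly Hba-a2 (373 and 57.1 FPKM). The erythroid genes went both ways, with 5 ratios below 1 and 3 above 1 (Klf1, Epor and Rhag). Klf1 was 4.16 FPKM in WT against 20.3 FPKM in ESAM-null. For macrophages 2 of 5 measured were lower, Timd4 was listed at 0 in both and the sums were 14.9 and 10.6 FPKM. For granulocytes and monocytes none of 5 was past 2-fold, Elane and Ctsg were listed at 0 in both and the sums were 290 and 292 FPKM. For megakaryocytes 2 of 7 were lower and 1 higher (sums 264 and 239 FPKM), and for hepatocytes 2 of 5 were lower and 1 higher, with Fgb at 0 in both (sums 42.0 and 37.1 FPKM). The part of erythroid or macrophage RNA in the levels of the lymphoid genes was not tested.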

How the data were processed

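RNA-seq libraries were made from sorted E14.5 FL LSK CD48- cells, 1 WT and 1 ESAM-null, with cDNA by SMART-Seq v4, shearing and sequencing of 75 bp from 1 end. For every gene symbol an FPKM value was made and deposited by the authors. Per the submitters' processing notes, the aligners were TopHat2 2.0.13 with Bowtie2 2.2.3, files were handled with SAMtools 0.1.19, values came from Cuffnorm 2.2.1, and the build was mm10. Neither the annotation nor the normalization setting nor the handling of multiply mapped reads, which bear on near-identical genes, is given in the sources used here.

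Each ESAM-null value was divided by the WT value with no pseudocount, and genes with at least 1 FPKM in 1 library were called past 2-fold. Approximate reads came from FPKM, the median RefSeq-linked transcript length (GENCODE M21, found for 89.8% of symbols) and the value of 1 read. The ratio of that value between libraries, 0.919, was the most frequent step among 327 genes under 0.3 FPKM in both (64 genes lay on it). Fragments of 200 bp (SD 80 bp) were assumed, and 66.2% (WT) and 73.8% (ESAM-null) of low genes came within 0.05 of a whole read, so the reads are not exact. Level classes were of mean FPKM. Intervals are Clopper-Pearson at 95%; that of the Id to E protein quotient is by the delta method. Steps were tested on simulated data. With 1 library a group, no test was run.

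The members and gene lists were chosen with earlier results of these data known. All 36 members are named. Of each other pathway list, up to 2 genes with the largest ratio past 2-fold in each direction and the 2 of highest mean FPKM are named. Vpreb2 was named as the copy of Vpreb1 after its values were seen, as was B230118H07Rik as an overlapping gene. Spi1 was found under its older symbol, and Paxx was not found. Promoters are from RefSeq on GRCm38.p6. Scripts ran under Python 3.11.15 with scipy 1.17.1 and numpy 2.4.6 for statistics, pandas 2.3.3 for tables and matplotlib 3.10.9 for plots. Alternatives were other filters, pseudocounts, thresholds and scalings, leaving out role groups, other transcript lengths and, chosen after seeing the data, subtraction of length and level class medians.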

Additional observations from a re-analysis of the deposited data

How the results depend on the processing

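The count of lower members was 5 and that of higher members 1. With all genes above 0 in 1 library kept, they were 11 and 2 of 32 (all genes 22.2% and 9.13%), with at least 0.1 FPKM 10 and 2 of 31 (20.3% and 8.6%), with at least 5 FPKM 0 and 0 of 17 (6.99% and 3.75%), and with at least 1 FPKM in both libraries 2 and 0 of 20 (7.13% and 4.09%). With a pseudocount of 0.1 the lower count was 3 of 25 (12.3%), and with a pseudocount of 1 the counts were 2 and 0 of 25 (8.83% and 4.71%). At 1.5-fold they were 8 and 5 of 25 (21.8% and 17.4%), and at 3-fold the lower count was 3 of 25 (7.27%). The median log2 ratio of the members was -0.32 after rescaling both libraries to a sum of 1000000, where that of all genes was -0.27, and -0.20 without the pre-B cell receptor genes. Subtraction of the length and level class medians, chosen after seeing the data, gave 4 lower and 1 higher, a median of 0.02 and a quotient of Id2 and Id3 over the E protein genes of 1.49. A filter or pseudocount moves the counts by its own construction, since the members past 2-fold are low. The rescaling shifts every log2 ratio by the same -0.28, and why the sums of the libraries differ was not tested. For the subtraction the cause was not tested. Median, upper quartile and trimmed mean scaling left both counts at 5 and 1. Of the log2 ratios of single members under the alternatives, 147 stayed within their counting interval and 27 did not, and of approximate reads with other transcript lengths, 95 and 19. No paired analysis was possible because each group has 1 library, and for the same reason no library could be left out. The 11 members under 1 FPKM in both libraries have at most 25 reads in either library, which limits what can be read from them.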

Other observations

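Cd48, the surface gene by whose absence the cells were sorted, was 16.6 FPKM in WT, about 112 reads, and 22.0 FPKM in ESAM-null, about 163 reads (interval of the ratio 1.05 to 1.72). It is a value of RNA and was not set against the protein. Cd48 was named here after its values were seen.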
